A study of Homo sapiens with 38 samples.

Results

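HCT116 cells, a human colorectal carcinoma line, were depleted of VPS4A and VPS4B together with 2 different combinations of siRNA duplexes, and the transcriptomes left by these 2 combinations were set against each other. The first combination, siVPS4A+B#1, was made of siVPS4A#2 and siVPS4B#1, and the second, siVPS4A+B#2, was made of siVPS4A#1 and siVPS4B#2. The libraries were taken by their labels, 4 of each combination, or 8 of the 38 libraries of the series. Libraries with the same replicate number carry the same batch letter in the labels and were treated as pairs. All 12627 listed genes were compared in both directions, to see which programs differed although both paralogs were silenced in both conditions.

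The series holds 9 conditions of the same line, with RNA taken 72 h after transfection, and 5 of them besides the 2 combinations were compared here. The other two, non-transfected cells (NT) and cells labelled siCTRL#2, entered only the fit that gives all p-values their shared variance. Each duplex of a combination was transfected at 30 nM. Cells given a single targeting duplex (siVPS4A#1, siVPS4A#2, siVPS4B#1 or siVPS4B#2) received 30 nM of it with 30 nM of the non-targeting duplex siCTRL#1, and siCTRL#1 cells received 60 nM of the latter. The combinations share no duplex, so their 8 libraries alone cannot assign a difference to the VPS4A or to the VPS4B duplex, and the single-duplex libraries were used for that. RNA came from whole cultures, in which fewer cells of a kind and less RNA per cell cannot be told apart.

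VPS4A and VPS4B are paralogous AAA ATPases that act at the end of the ESCRT pathway. They take apart the filaments of ESCRT-III, a polymer that closes membrane necks when vesicles bud into endosomes, when daughter cells separate, when the nuclear envelope reseals and when damaged membranes are repaired. An siRNA duplex directs cleavage of the mRNA it matches, and separate duplexes are used against the same mRNA so that responses common to them can be told from responses to a single duplex.

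Transcripts were counted with an amplicon panel, and values are given in RPM, reads scaled to the size of the library with TMM factors. The 8 libraries of the combinations held 5090666 to 9168594 reads, and 3 reads, taken as the floor, correspond to at most 0.589 RPM in them. Of the other libraries used, the library labelled siVPS4A#1 replicate 2 stood apart, with 669257 reads against at least 5090666 in every other library of the series. It held 11.3 RPM of VPS4A, against 1.64 to 3.51 in the other siVPS4A#1 libraries, and 1 read of VPS4B. Over 10132 genes, its deviations from the overall mean had Pearson's r of 0.329 to 0.730 with the siVPS4A+B#1 libraries and of -0.131 to -0.0637 with the other libraries of its own label. Results that rest on siVPS4A#1 are therefore given with and without it. Of the 8 listed HCT116 markers, 6 were measured, and all 6, among them the epithelial adhesion gene EPCAM and the keratin gene KRT8, were present in all libraries of both combinations.

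Both paralogs were silenced in both combinations, and VPS4A was silenced more deeply with the second. VPS4A (NM_013245, chr16:69345253-69360842, plus strand, GRCh37) averaged 189 RPM in siCTRL#1 cells. In replicates 1 to 4, 13.05, 33.9, 22.6 and 10.7 RPM remained with siVPS4A+B#1 and 3.07, 7.75, 4.32 and 5.10 with siVPS4A+B#2. The groups did not overlap, and each library of the second combination lay below its partner. The log2 difference was -1.72 ± 0.30 (n = 4 pairs, limma adjusted p = 7.37e-05, Benjamini-Hochberg over 12627 genes). Here and below, ± is limma's SE from the fit to all 38 libraries, not the spread of the 4 pairs. The 95% intervals use this SE. The exact permutation test, 2-sided, gave p = 0.0286, the smallest that 4 libraries against 4 allow (0.0571 after adjustment over the 2 paralogs). The exact permutation test that flips the signs of the 4 replicate pairs cannot go below p = 0.125, which is the value it gave. VPS4B (NM_004869, chr18:61056423-61089716, minus strand) averaged 20.6 RPM in siCTRL#1 cells, 0.314, 0.456, 0.361 and 1.04 with siVPS4A+B#1 and 1.53, 1.51, 1.28 and 0.850 with siVPS4A+B#2. These rest on 2 to 7 and on 7 to 9 reads, at or near the floor. The groups overlapped, and the log2 difference was 0.58 ± 0.37 (95% interval -0.17 to 1.34, limma adjusted p = 0.278, exact permutation p = 0.0571). With array weights VPS4B passed the test (log2 0.71, limma adjusted p = 0.0281). The amount of VPS4A mRNA left thus moved with the comparison, and its part in the other differences was not tested.

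Between the combinations 1997 of 12627 genes differed by at least 1.5-fold at a limma adjusted p under 0.05, or 15.8% of the genes tested. Of these, 832 were higher with siVPS4A+B#2 (6.59%) and 1165 were lower (9.23%). The sign was the same in all 4 replicate pairs for 1864 of the 1997. In 1538 of them (12.2% of all genes) the 4 libraries of each combination did not overlap. Differences were moderate for most genes, with a median log2 difference of 0.79 among the higher and -0.82 among the lower genes. A change of at least 2-fold was found for 199 higher and 349 lower genes, and of at least 4-fold for 7 and 20. Over all genes the median log2 difference was -0.002, and positive differences always mean higher with siVPS4A+B#2. Fold changes were computed after adding 1 RPM, which understates the change of scarce transcripts.

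Among the leading genes, whose choice is described below, HMOX1 differed most. It encodes heme oxygenase 1, the stress-inducible enzyme that degrades heme and releases iron. HMOX1 (NM_002133, chr22:35776354-35790207, plus strand) averaged 45.8 RPM in siCTRL#1 cells. It had 289.9, 165, 485 and 355 RPM with siVPS4A+B#1 and 2660.2, 4357, 5447 and 3183 with siVPS4A+B#2, so that the lowest library of the second group lay far above the highest of the first. The difference was 12.5-fold (log2 3.64 ± 0.27, n = 4 pairs, limma adjusted p = 2.55e-11). FTH1, the ferritin heavy chain that stores iron, had 2544, 2574, 4722 and 4357 RPM with the first combination and 8844, 10379, 14660.2 and 10060.0 with the second. It was 3.17-fold higher with the second (log2 1.66 ± 0.17, limma adjusted p = 1.32e-08). NQO1, a quinone reductase, had 508, 478, 544 and 507 with the first combination, against 1046, 1052, 933 and 820.5 RPM and was 1.88-fold higher (log2 0.91 ± 0.13, limma adjusted p = 2.06e-06). For both genes the groups did not overlap. In contrast, FTL, the ferritin light chain, had 9930.0, 6739, 8908 and 8399.9 with the first combination, against 7613, 8239, 7191 and 5277 RPM, with overlapping groups and a log2 difference of -0.27 (95% interval -0.80 to 0.27). BLVRA, which encodes biliverdin reductase, the enzyme that acts on the product of heme oxygenase, had 93.1, 105, 115 and 139.8 RPM with the first combination and 32.1, 40.3, 40.7 and 39.5 with the second. It was 2.90-fold lower with the second (log2 -1.54 ± 0.16, limma adjusted p = 8.72e-09). BACH1, a repressor of HMOX1, was lower too (log2 -1.06 ± 0.22, limma adjusted p = 5.09e-04). Of 32 measured members of the NRF2 antioxidant list, which holds HMOX1, FTH1, NQO1 and BACH1, 6 were higher and 4 were lower, and the list median was 0.15.

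**Figure D1:**
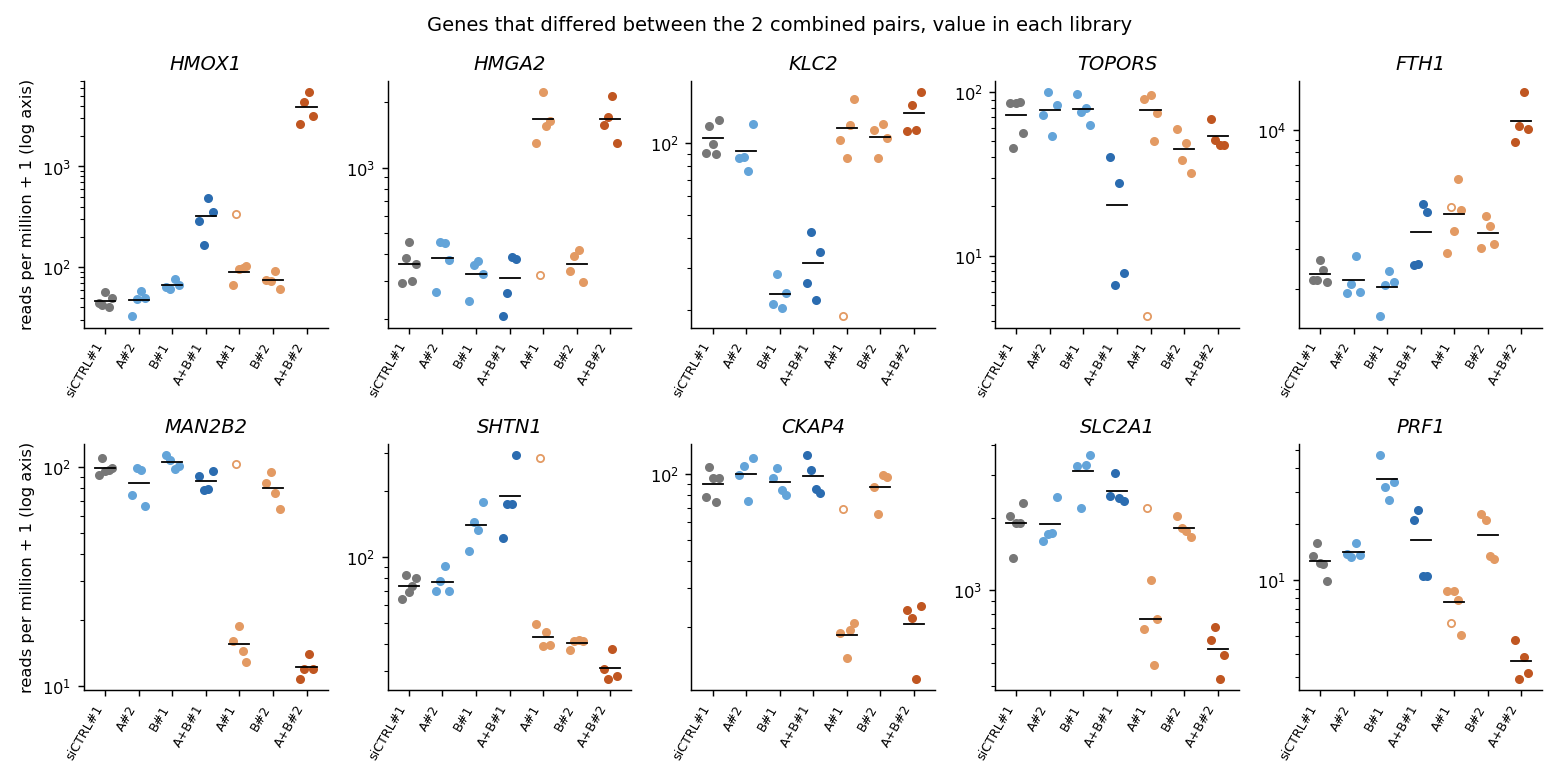
RPM plus 1 on a log axis for 10 genes that differed between the combinations, 1 point per library and a line at their mean, in siCTRL#1 cells (grey), the duplexes of siVPS4A+B#1 and that combination (blue) and the duplexes of siVPS4A+B#2 and that combination (orange). The open circle is the library labelled siVPS4A#1 replicate 2, which is left out of the mean line. HMOX1 lay at 2660.2, 4357, 5447 and 3183 RPM with siVPS4A+B#2 and at no more than 485 with siVPS4A+B#1, while MAN2B2 and CKAP4 were lower with siVPS4A#1 than with siVPS4A#2, its open circle aside.

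Other genes with large differences serve varied functions. The 15 leading genes in each direction, HMOX1 included, were taken only from called genes whose libraries did not overlap between the combinations. Lack of overlap is thus no further result for them. Their mean log2 level over all 38 libraries also had to be at least 2, so scarcer genes with larger differences can be absent. HMGA2, a chromatin architecture protein of embryonic and tumour cells, averaged 357 RPM in siCTRL#1 cells. It had 204, 263, 383 and 376 with siVPS4A+B#1 and 1565, 1711, 2135 and 1297 with siVPS4A+B#2 (5.55-fold, log2 2.47 ± 0.29, limma adjusted p = 1.42e-07). KLC2, a light chain of the motor protein kinesin, stood at 103 RPM in siCTRL#1 cells, 24.8, 41.5, 21.04 and 33.9 with the first combination and 112, 144, 112 and 162 with the second (4.34-fold, log2 2.12 ± 0.30, limma adjusted p = 3.61e-06). Against siCTRL#1, HMGA2 was higher with the second combination and not called with the first, and KLC2 was lower with the first and not called with the second. The list of 15 leading genes higher with siVPS4A+B#2 also held WSB1 (log2 2.06), DACT1 (2.04), ITGB8 (2.03), TNFSF18 (1.93), NACC2 (1.82), TRIR (1.76), CYP4F3 (1.74), MOSMO (1.71) and TMEM158 (1.67). It further held the interferon-induced genes IFIT1 and IFIT2 and the ubiquitin and SUMO ligase gene TOPORS, which are described with their groups.

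Among the leading genes, the largest difference in the other direction was that of MAN2B2, which encodes a lysosomal mannosidase. MAN2B2 (NM_015274, chr4:6576916-6625089, plus strand) averaged 98.1 RPM in siCTRL#1 cells, 89.8, 77.8, 78.8 and 95.1 with siVPS4A+B#1 and 9.72, 10.98, 12.97 and 10.9 with siVPS4A+B#2. It was 7.12-fold lower with the second (log2 -2.83 ± 0.29, limma adjusted p = 1.24e-08), and the first combination left it near the control level. SHTN1, an adaptor of neuronal polarity and actin, had 72.8 RPM in siCTRL#1 cells, 121, 173, 174 and 293 with the first combination and 29.5, 26.5, 36.8 and 27.3 with the second (log2 -2.56 ± 0.32, limma adjusted p = 3.68e-07). CYSTM1, a small membrane protein, had 60.7 in siCTRL#1 cells and 207, 159.7, 159 and 158 with the first combination, against 30.2, 31.0, 29.5 and 35.1 with the second (log2 -2.40 ± 0.40, limma adjusted p = 4.15e-05). SHTN1 and CYSTM1 lay above the control with the first combination and below it with the second. CKAP4, a protein of endoplasmic reticulum sheets, had 121, 103, 84.3 and 80.2 RPM with the first combination and 23.0, 20.9, 10.6 and 24.0 with the second (log2 -2.29 ± 0.26, limma adjusted p = 9.71e-08). PRF1, perforin, was scarce, with 20.1, 22.9, 9.50 and 9.53 with the first combination, against 3.75, 1.94, 2.88 and 2.19 RPM (log2 -2.08 ± 0.21, limma adjusted p = 8.72e-09). No library of one combination reached the range of the other for either gene, which the choice of the leading genes required. Others of the 15 leading lower genes were SLC2A1, a glucose transporter described with its pathway, the taurine transporter gene SLC6A6 (log2 -2.28), CDC42SE2 (-2.25), KRT23 (-2.24), TSPAN14 (-2.12), CIB2 (-2.09), TXNRD2 (-2.36), ZCCHC24 (-2.30) and SPOPL (-2.39).

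Gene groups were then read as 38 lists of pathway and cell type genes. A list is described by the number of its members called in each direction, against 6.59% of all genes higher and 9.23% lower, and by its median log2 difference, against -0.002 over all genes. The largest share of higher members was in the interferon list, and the lowest median was that of the mitosis list.

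**Figure D2:**
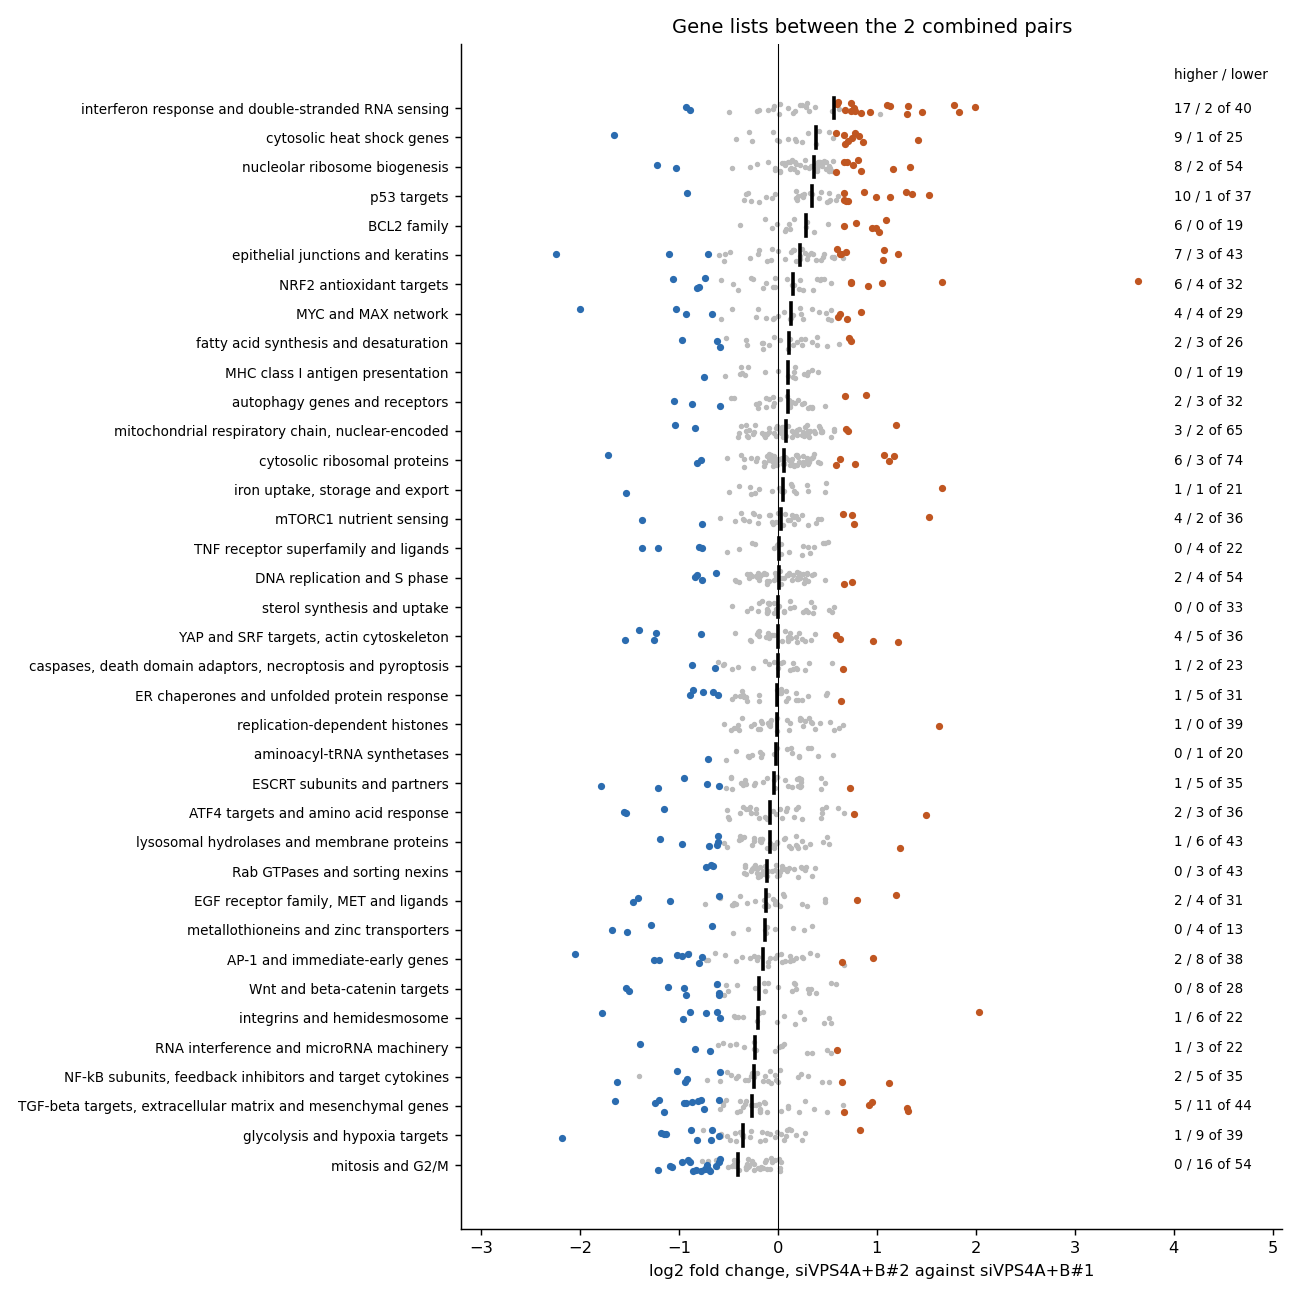
Log2 difference between siVPS4A+B#2 and siVPS4A+B#1 for each measured member of 37 gene lists, ordered by their median (black bar), with members called higher in orange, members called lower in blue and the others in grey, and the counts at the right. The interferon list lies highest, with a median of 0.56 and 17 of 40 members higher, and the mitosis list lowest, with a median of -0.41 and 16 of 54 members lower.

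Interferon-stimulated genes encode sensors of double-stranded RNA and proteins that block its translation or destroy it. Of 40 measured members, 17 were higher with siVPS4A+B#2 (42.5%) and 2 were lower (5.0%), and the list median was 0.56. The higher members were the sensors RIGI and IFIH1, the 2',5'-oligoadenylate synthetases OAS1, OAS3 and OASL, the IFIT proteins IFIT1, IFIT2, IFIT3 and IFIT5, and IFI6, IFI44, ISG15, DDX60, SAMD9, RSAD2, PARP9 and IRF7. OAS1 had 0.314, 0.304, 0.721 and 0.149 RPM with siVPS4A+B#1 and 5.63, 4.52, 2.56 and 5.59 with siVPS4A+B#2 (log2 1.996 ± 0.24, limma adjusted p = 2.19e-07). IFIT1, which binds foreign RNA, had 3.62, 6.08, 4.33 and 3.42 with the first combination, against 24.7, 15.3, 10.4 and 24.5 (log2 1.83 ± 0.30, limma adjusted p = 2.99e-05). IFIT2 had 4.72, 3.04, 3.97 and 5.06 with the first combination, against 15.7, 12.9, 16.8 and 22.2 (log2 1.78 ± 0.23, limma adjusted p = 5.55e-07). The combinations did not overlap for any of the 3 genes, which the choice of the leading genes required for IFIT1 and IFIT2. IFI6, a mitochondrial membrane protein and among the more abundant members, had 135, 136, 123 and 154 with the first combination, against 512, 343, 275 and 409 RPM (log2 1.45 ± 0.18, limma adjusted p = 3.92e-07). OAS1, at 0.149 to 0.721 RPM with the first combination, was at or near the floor there. So were several other members, as RSAD2, with 0 reads in all 4 libraries of the first combination, and IFIT3, with a mean of 0.221 RPM there. Relative to siCTRL#1, IFIT1 was lower with the first combination (log2 -1.25) and had a log2 difference of 0.58 with the second, which was not called. IFI6 had 0.49, not called, and 1.94, called. The 2 lower members were the transcription factor IRF2 (log2 -0.93) and the DNA-sensing adaptor STING1 (-0.89). MX1 (log2 -0.19, limma adjusted p = 0.585) and ADAR (0.17, limma adjusted p = 0.396) did not pass the test. Leaving out 1 replicate at a time left 12 to 15 members higher.

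**Figure D3:**
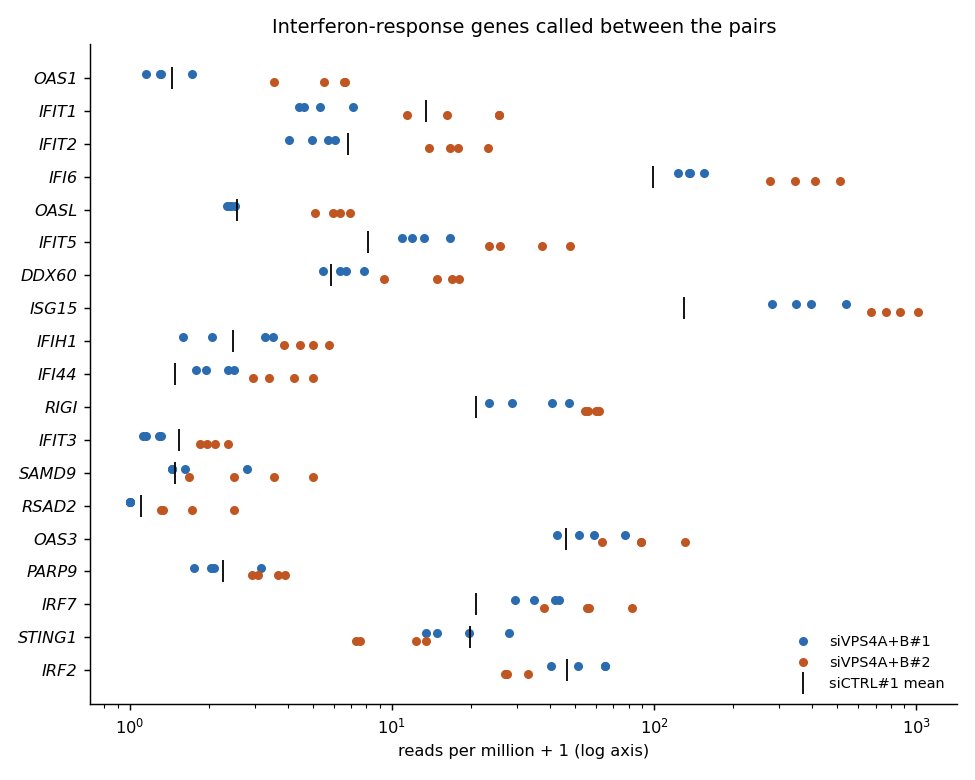
RPM plus 1 on a log axis for the 17 interferon list members higher and the 2 lower with siVPS4A+B#2, 1 point per library of siVPS4A+B#1 (blue) and siVPS4A+B#2 (orange), with a bar at the siCTRL#1 mean. OAS1, IFIT1, IFIT2 and IFI6 show no overlap, with IFI6 at 135, 136, 123 and 154 against 512, 343, 275 and 409 RPM.

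The promoters of these genes are shown because the factor complexes that switch them on read a repeated GAAA core. The motif searched was GAAANNGAA, or TTCNNTTTC on the other strand, from 250 bases before to 50 after the RefSeq start site (GRCh38.p14). It was found in 6.26% of 10206 promoters of genes measured here and in 8.29% of 27305 RefSeq promoters. Of the 30 members of the interferon list with a promoter in the table, 18 held it (60.0%), among them 11 of 14 higher members (78.6%) and 7 of 16 others (43.8%). The list was drawn up as interferon-response genes, so its share above that of all promoters was largely set by that choice. Whether the higher members and the others differ in their share was not tested. In the lines that follow, capitals mark the matches.
OAS1, chr12:112906712-112907011, plus strand, no match: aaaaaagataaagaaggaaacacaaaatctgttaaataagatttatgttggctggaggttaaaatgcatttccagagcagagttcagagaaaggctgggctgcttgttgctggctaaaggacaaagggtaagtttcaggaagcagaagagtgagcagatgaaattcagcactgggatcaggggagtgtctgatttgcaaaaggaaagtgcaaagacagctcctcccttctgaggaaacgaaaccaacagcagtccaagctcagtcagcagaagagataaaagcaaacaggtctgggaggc
IFIT1, chr10:89392373-89392672, plus strand, 2 matches: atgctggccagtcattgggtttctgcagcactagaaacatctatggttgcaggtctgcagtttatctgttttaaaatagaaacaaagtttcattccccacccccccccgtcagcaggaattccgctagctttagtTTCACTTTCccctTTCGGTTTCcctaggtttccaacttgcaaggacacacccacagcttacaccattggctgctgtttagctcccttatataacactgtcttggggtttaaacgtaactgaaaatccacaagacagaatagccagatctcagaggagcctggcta
IFI6, chr1:27672143-27672442, minus strand, 3 matches: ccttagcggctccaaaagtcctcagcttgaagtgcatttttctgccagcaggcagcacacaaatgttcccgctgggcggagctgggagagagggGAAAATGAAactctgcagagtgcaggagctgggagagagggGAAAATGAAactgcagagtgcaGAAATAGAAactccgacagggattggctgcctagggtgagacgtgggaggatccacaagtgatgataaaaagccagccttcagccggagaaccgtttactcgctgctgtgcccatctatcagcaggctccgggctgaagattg
The largest difference of the list, that of OAS1, thus belonged to a promoter without a match to this motif in the window. That says nothing on the factors that act there, and the window does hold gaaacgaaa, a repeated GAAA core with a spacing the motif does not cover.

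Chaperones and nucleolar genes were the next highest lists. Of 25 cytosolic heat shock genes, which refold proteins under HSF1, 9 were higher with siVPS4A+B#2 and 1 was lower, with a median of 0.38. HSPA1B, the inducible HSP70, had 53.8, 80.2, 50.5 and 74.0 RPM with the first combination and 136, 153, 192 and 212 with the second, without overlap (2.67-fold, log2 1.41 ± 0.21, limma adjusted p = 5.01e-06). HSPA1B and HSPA1A (log2 0.82) are near-identical copies, and how amplicon reads divided between them is uncertain. The call of HSPA1A was lost without replicate 4. Other higher members were HSPE1 (log2 0.85), DNAJB1 (0.70), HSP90AA1 (0.68) and AHSA1 (0.78), the activator of the HSP90 ATPase. The lower member was the HSP90 co-chaperone FKBP4, with 406, 434, 431 and 494 RPM against 168, 158, 116 and 121 (log2 -1.66 ± 0.27, limma adjusted p = 2.90e-05). Without replicate 1, 6 members were higher.

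Of 54 genes of nucleolar ribosome biogenesis, 8 were higher and 2 lower, with a median of 0.36, and 46 of the 54 differences were positive. GRWD1, a histone chaperone that also takes part in ribosome assembly, had 45.8, 44.1, 50.9 and 47.9 RPM with the first combination, against 131, 126, 114 and 111, again without overlap (log2 1.33 ± 0.11, limma adjusted p = 2.14e-10). NHP2 (log2 1.17), a protein of pseudouridylating particles, and RRS1 (0.84) were also higher. The nucleophosmin gene NPM1 (log2 -1.04 ± 0.23, limma adjusted p = 0.00134) and RRP1B (-1.22) were lower. The count of higher members ran from 5 without replicate 1 to 10. Among 74 cytosolic ribosomal proteins, 6 were higher and 3 lower (1 without replicate 3), and processed copies of such genes make single values uncertain, as for RPL21 (log2 -1.72) and RPS19 (1.17).

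Among p53 targets and the BCL2 family, nearly all called genes were higher with the second combination. Of 37 p53 targets, 10 were higher and 1 was lower, with a median of 0.34. SESN1, an inhibitor of mTORC1 under stress, had 8.96, 13.2, 11.3 and 10.3 RPM with siVPS4A+B#1 and 38.5, 31.4, 34.7 and 28.7 with siVPS4A+B#2 (log2 1.53 ± 0.24, limma adjusted p = 1.38e-05). The DNA damage recognition gene DDB2 (log2 1.29), the ferredoxin reductase gene FDXR (1.36) and the survival gene TRIAP1 (1.13) were higher as well. CDKN1A, which encodes the cell cycle inhibitor p21 and was the most abundant member, had 2114, 1741, 2013 and 1524 RPM with the first combination, against 2295, 2443, 1709 and 2028, with overlapping groups and a log2 difference of 0.20 (95% interval -0.18 to 0.57). Without replicate 3 the count of higher members was 6.

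Of 19 BCL2 family members, 6 were higher and none lower, with a median of 0.28. They lie on both sides of the decision on cell death. The protective members BCL2L1, with 354, 332, 407 and 388 RPM against 766, 649.9, 621 and 535 (log2 0.79 ± 0.13, limma adjusted p = 2.77e-05), and BCL2L2 (log2 0.95) were higher. So were the death-promoting BBC3, BMF (log2 1.03), HRK (1.09) and BAX (0.67). BBC3 and BAX also belong to the p53 target list and are counted in both lists. BBC3, also known as PUMA, had 27.5, 12.004, 15.4 and 21.6 RPM with the first combination, against 39.4, 39.2, 41.0 and 30.1 (log2 0.99 ± 0.22, limma adjusted p = 0.00137). The death genes BAK1 (log2 0.37, 95% interval 0.050 to 0.68), BIK (0.51, 0.098 to 0.92) and BCL2L11 (0.073, -0.23 to 0.38) did not pass the test between the combinations, though BIK passed without replicate 1 (0.73). The study reports these genes as raised by combined depletion. That is a comparison with controls, which the test between the combinations does not address.

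The mitosis and G2/M list had the lowest median. Of its 54 genes, which serve spindle assembly, chromosome segregation and cytokinesis, 16 were lower with siVPS4A+B#2 (29.6%) and none was higher, with a median of -0.41. MKI67, the proliferation marker that coats mitotic chromosomes, had 74.2, 92.5, 82.2 and 62.4 RPM with the first combination and 43.5, 47.6, 23.5 and 32.9 with the second (log2 -1.09 ± 0.21, limma adjusted p = 2.62e-04). CEP55, which brings ESCRT proteins to the midbody, had 23.1, 38.7, 44.1 and 35.3 with the first combination, against 12.1, 13.1, 15.8 and 16.3 (log2 -1.22 ± 0.22, limma adjusted p = 1.24e-04). Both genes were apart in all libraries. The siCTRL#1 means were 147 for MKI67 and 57.1 for CEP55, above every library of both combinations. Without replicate 3, 4 members were lower, or 12 with the library labelled siVPS4A#1 replicate 2 left out as well, and without that library alone the count was 21. Of 54 genes of DNA replication and S phase 2 were higher and 4 lower (2 without replicate 4), and of 39 replication-dependent histones 1 was higher and none lower, with medians of 0.01 and -0.01.

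Several genes of glucose use and the hypoxia response were lower with the second combination. Of 39 members, 9 were lower (23.1%) and 1 was higher, with a median of -0.35. SLC2A1, which encodes the glucose transporter GLUT1, averaged 1896 RPM in siCTRL#1 cells, 2464, 3063, 2415 and 2347 with siVPS4A+B#1 and 617, 700.3, 426 and 536 with siVPS4A+B#2. It was 4.56-fold lower with the second (log2 -2.19 ± 0.26, limma adjusted p = 1.96e-07), and no library of one group came near the other. The glycolytic kinase PGK1 had 1155, 1388, 1048 and 971 with the first combination, against 437, 494, 512 and 596 RPM (log2 -1.16 ± 0.18, limma adjusted p = 9.60e-06). The hypoxia-induced peptide ADM had 182, 219, 151 and 115 with the first combination, against 55.8, 87.6, 49.1 and 106 (log2 -1.18 ± 0.19, limma adjusted p = 2.79e-05). The collagen hydroxylase gene P4HA1 was lower too (log2 -1.13 ± 0.21, limma adjusted p = 1.63e-04). GAPDH, the most abundant member, had a log2 difference of -0.28 (95% interval -0.66 to 0.10). Without replicate 1, 6 members were lower.

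Genes of adhesion, matrix and mesenchymal state differed in both directions. Of 44 TGF-beta targets, matrix and mesenchymal genes, 11 were lower and 5 higher, with a median of -0.26. ZEB1, a repressor of epithelial genes, had 17.9, 19.3, 22.6 and 14.7 RPM with the first combination and 3.75, 6.03, 6.08 and 5.22 with the second (log2 -1.65 ± 0.22, limma adjusted p = 8.91e-07). TIMP2, an inhibitor of matrix metalloproteinases, had 1012, 804, 917 and 1148 with the first combination, against 407, 411, 431 and 482 (log2 -1.15 ± 0.19, limma adjusted p = 2.78e-05). The urokinase gene PLAU (log2 -1.25) and the BMP target ID1 (-1.20) were lower as well. THBS1, thrombospondin 1, went the other way, with 8.18, 17.5, 24.0 and 18.9 with the first combination, against 44.5, 45.6, 46.6 and 31.1 RPM (log2 1.32 ± 0.19, limma adjusted p = 5.01e-06), and so did the tissue plasminogen activator gene PLAT (log2 1.30) and fibronectin, FN1 (0.95). Without replicate 1, 7 members of the list were lower.

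Of 22 integrin and hemidesmosome genes, 6 were lower and 1 was higher, with a median of -0.20. The lower ones included ITGB3 (log2 -1.78), ITGA5 (-0.96) and ITGB4 (-0.89), which encode receptor chains for vitronectin, fibronectin and laminin. The higher one was ITGB8, a chain of the integrin that frees latent TGF-beta, with 1.73, 4.71, 2.77 and 3.42 RPM with the first combination, against 18.6, 12.1, 12.3 and 20.04 (log2 2.03 ± 0.42, limma adjusted p = 6.06e-04). Among 43 epithelial genes, 7 were higher, among them the junction gene F11R (log2 1.07) and the epithelial transcription factor gene GRHL2 (1.06), and 3 were lower. Of these, the keratin gene KRT23 had 68.5, 71.1, 47.1 and 68.9 with the first combination, against 18.6, 14.2, 6.40 and 14.2 RPM (log2 -2.24 ± 0.22, limma adjusted p = 6.91e-09). Without replicate 3, 4 epithelial genes were higher. Of 36 YAP and SRF targets, 4 were higher (2 without replicate 3), as TPM4 (log2 1.21) and SRF itself (0.97), and 5 were lower, as the receptor gene AXL (-1.54) and the focal adhesion gene ZYX (-1.41).

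The mRNAs of EGFR and MET, receptor tyrosine kinases that ESCRT proteins sort to the lysosome, were lower with the second combination. EGFR had 129.8 RPM in siCTRL#1 cells, 233, 226, 277 and 365 with siVPS4A+B#1 and 109, 104, 94.1 and 94.6 with siVPS4A+B#2 (log2 -1.42 ± 0.17, limma adjusted p = 2.75e-07). MET, the receptor of hepatocyte growth factor, had 49.2 in siCTRL#1 cells and 168, 163, 201 and 282 with the first combination, against 74.5, 73.6, 71.2 and 66.5 with the second (log2 -1.46 ± 0.36, limma adjusted p = 0.00329). Both were above the control with the first combination (log2 1.01 and 1.89, called), and with the second their differences from it were -0.41 and 0.43, not called. The ubiquitin ligase CBL, which tags both receptors for sorting, was lower with the second (log2 -1.09 ± 0.17, limma adjusted p = 1.43e-05), and the ligand TGFA was higher (log2 1.19 ± 0.26, limma adjusted p = 7.64e-04). Of 31 members of the list of EGF receptors, MET and their ligands, 4 were lower (12.9%) and 2 higher (6.45%), near the shares of all genes, with a median of -0.12.

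Of 38 immediate-early genes, 8 were lower with the second combination and 2 higher, with a median of -0.15. NR4A1, an orphan nuclear receptor induced within minutes of stimulation, had 14.9 RPM in siCTRL#1 cells, 240.1, 232, 122 and 216 with siVPS4A+B#1 and 57.5, 49.5, 40.0 and 40.7 with siVPS4A+B#2 (log2 -2.05 ± 0.53, limma adjusted p = 0.0045). SPRY2, a feedback inhibitor of receptor signalling, was lower too (log2 -1.25 ± 0.20, limma adjusted p = 2.39e-05), and KLF4 was higher (log2 0.96 ± 0.18, limma adjusted p = 2.16e-04). Among 35 genes of the NF-kB list, which holds inhibitors such as NFKBIA and cytokines, 5 were lower and 2 higher, with a median of -0.24. The count of lower members was 1, 2 and 3 without replicates 1, 3 and 4, and 8 without the library labelled siVPS4A#1 replicate 2. With that library and replicate 1, 3 or 4 left out together it was 7, 9 and 9. Against siCTRL#1, 24 of the 35 were higher and none lower with siVPS4A+B#1, where 10.6% of all genes were higher and 9.52% lower. With siVPS4A+B#2 21 were higher and none lower, where 13.2% of all genes were higher and 14.8% lower. Both comparisons use the same 5 control libraries.

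NFKBIA, the inhibitor that NF-kB itself induces, had 393, 300.2, 256 and 380.3 RPM with siVPS4A+B#1 and 364, 323, 258 and 377 with siVPS4A+B#2, which overlap, with a 95% interval of the log2 difference from -0.55 to 0.55. BIRC3, an inhibitor of apoptosis, had 298, 145, 365 and 288 with the first combination, against 223, 310.0, 287 and 242 (log2 0.018, 95% interval -1.08 to 1.12), and the chemokine gene CXCL2 differed by -0.082 (-0.89 to 0.72). The control means were 80.9 for NFKBIA and 8.84 for BIRC3, below every library of both combinations. CXCL8, the neutrophil chemokine, had 3.32 RPM in siCTRL#1 cells, 253, 126, 259.7 and 345 with siVPS4A+B#1 and 98.2, 100.53, 56.8 and 101.4 with siVPS4A+B#2. Its groups did not overlap, and its log2 difference of -1.40 ± 0.69 did not pass with all libraries (limma adjusted p = 0.146). CXCL8 passed without the library labelled siVPS4A#1 replicate 2, which enters the shared variance (limma adjusted p = 1.93e-05), with array weights (0.00102), with only the compared libraries (0.00195) and without replicate 2 (6.92e-06). TNFAIP3, another inhibitor of NF-kB, differed by -0.59 (limma adjusted p = 0.234), and passed without that library (limma adjusted p = 0.0385) and with array weights (0.0404). IL18 was 1.57-fold higher with the second combination (limma adjusted p = 0.0349), a call that was lost when replicate 1, 2 or 3 was left out. IER3 was lower (log2 -1.02 ± 0.18, limma adjusted p = 1.02e-04). Of 22 TNF receptors and ligands, 4 were lower and none higher, namely the decoy receptor TNFRSF6B (log2 -1.37), NGFR (-1.21), TNFRSF12A (-0.80) and the lymphotoxin receptor LTBR (-0.77).

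Among 28 Wnt and beta-catenin targets, 8 were lower and none higher, with a median of -0.19. AXIN2, a feedback inhibitor that marks beta-catenin activity, had 20.1 RPM in siCTRL#1 cells, 13.99, 15.8, 18.6 and 12.2 with siVPS4A+B#1 and 4.43, 4.52, 4.96 and 4.61 with siVPS4A+B#2 (log2 -1.51 ± 0.15, limma adjusted p = 6.11e-09). NOTUM, a secreted enzyme that inactivates Wnt proteins, was lower as well (log2 -1.54 ± 0.31, limma adjusted p = 4.61e-04). Without replicates 1 and 3 respectively, 4 and 5 members were lower. Metallothioneins, which bind zinc and copper, differed by a similar amount. MT2A had 2314 RPM in siCTRL#1 cells, 6406, 8330.2, 5063 and 5483 with siVPS4A+B#1 and 1877, 1884, 1821 and 2204 with siVPS4A+B#2 (log2 -1.68 ± 0.25, limma adjusted p = 8.85e-06). MT1E (log2 -1.53) and MT1X (-1.28) were lower too. Metallothionein genes are near-identical copies of each other, so the division of reads among them is uncertain.

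In the pathway in which VPS4 acts, the share of genes that differed was near that of all genes. Of 35 ESCRT subunits and partners, 5 were lower (14.3%, against 9.23% of all genes) and 1 was higher (2.86%, against 6.59%), with a median of -0.04. VTA1, the cofactor that stimulates the VPS4 ATPases, was the member that differed most, with 62.0 RPM in siCTRL#1 cells, 61.5, 75.8, 68.2 and 81.3 with siVPS4A+B#1 and 17.2, 17.9, 21.8 and 23.6 with siVPS4A+B#2. It was 3.45-fold lower with the second (log2 -1.79 ± 0.19, limma adjusted p = 1.53e-08), and the libraries of the first were near the control. The ESCRT-I subunit VPS37C (log2 -0.95) and the ESCRT-0 protein STAM2 (-0.71) were lower and the ESCRT-III subunit CHMP2B was higher (0.73). Of 43 lysosomal genes, 6 were lower (3 without replicate 3) and 1 was higher. The protease gene CTSB had 537, 562, 509.7 and 619 RPM with the first combination, against 291, 215, 339 and 160.2 (log2 -1.20 ± 0.20, limma adjusted p = 4.11e-05). ATP6V0D1, a subunit of the proton pump that acidifies lysosomes, had 71.9, 53.03, 73.8 and 44.1 with the first combination, against 137, 144, 156 and 129 (log2 1.23 ± 0.21, limma adjusted p = 5.13e-05). For both the combinations did not overlap. Among 32 autophagy genes 2 were higher and 3 lower, and among 43 Rab GTPases and sorting nexins 3 were lower (1 and 0 without replicates 3 and 4) and none higher.

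The remaining lists are given by their counts, against 6.59% of all genes higher and 9.23% lower. None of 33 genes of sterol synthesis and uptake was called, with a median of 0.003. Among 36 ATF4 targets 2 were higher and 3 lower, among 31 genes of the unfolded protein response 1 and 5 (16.1% lower), among 65 respiratory chain genes 3 and 2, among 29 genes of the MYC network 4 and 4 (13.8% each), among 36 genes of mTORC1 nutrient sensing 4 and 2, among 26 of fatty acid synthesis 2 and 3, and among 23 caspases and death adaptors 1 and 2. In the unfolded protein response 2, 2 and 3 genes were lower without replicates 1, 3 and 4, and in fatty acid synthesis 1 was lower without replicate 1 or 4. Of the ATF4 list 5 were lower and of the respiratory chain 5 higher without replicate 2, and 2 of the MYC network were higher without replicate 2 and 2 of nutrient sensing without replicate 3. Of 21 iron genes 1 was higher and 1 lower, of 22 genes of RNA interference 1 and 3, of 20 aminoacyl-tRNA synthetases none and 1, and of 19 genes of antigen presentation none and 1. Of 28 markers of other cell types 9 were measured, and their summed level was 339 to 369 RPM with the first combination and 283 to 331 with the second. Much of the sum came from TUBB3, at 117 to 207 and 159 to 168 RPM, and CD68, at 90.3 to 179 and 40.9 to 95.3. Their siCTRL#1 means were 137 and 8.28. LYZ, PECAM1, MYH11 and PDGFRB were at no more than 1.73 RPM in any of the 8 libraries. COL1A1 and ACTA2 were higher and DES was lower, and their part in the results was not tested.

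Where each combination lay relative to siCTRL#1 differed from gene to gene. Against siCTRL#1, the first combination raised 1338 genes (10.6%) and lowered 1202 (9.52%), and the second raised 1673 (13.2%) and lowered 1864 (14.8%). Both sets of values use the same 5 control libraries. Without the TMM factors the median of all genes moved by -0.16 and -0.13 on the log2 scale, and the share of higher genes among those called went from 52.7% to 28.0% and from 47.3% to 32.4%. In 20 genes the first combination was above and the second below the control, and in 3 genes the reverse held. CLDND1, a claudin-related membrane protein, was among the former, with 223 RPM in siCTRL#1 cells, 436, 475, 438 and 523 with siVPS4A+B#1 and 106, 108, 126 and 123 with siVPS4A+B#2 (log2 -2.004 ± 0.27, limma adjusted p = 2.03e-06). SHTN1, CYSTM1, TSPAN14 and the semaphorin gene SEMA3B (log2 -1.90) were others. TNFSF18, the ligand of the GITR receptor, was among the latter, with 3.71 RPM in siCTRL#1 cells and 1.42, 0.760, 0.842 and 1.34 with siVPS4A+B#1, against 7.67, 5.38, 5.12 and 10.3 with siVPS4A+B#2 (log2 1.93 ± 0.31, limma adjusted p = 1.75e-05). The others were the histone gene H2BC12 (log2 1.63) and the ion cotransporter gene SLC12A2 (1.23).

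The single-duplex libraries showed how far each difference was already present with 1 duplex. The duplexes of the second combination were set against those of the first, siVPS4A#1 against siVPS4A#2 and siVPS4B#2 against siVPS4B#1, in libraries that share none with the combinations. Between the VPS4A duplexes 1025 genes were higher (8.12%) and 1531 lower (12.1%), or 1253 (9.92%) and 1554 (12.3%) without the library labelled siVPS4A#1 replicate 2. Between the VPS4B duplexes 786 were higher (6.22%) and 895 lower (7.09%). Of the 832 genes higher with siVPS4A+B#2, 176 were higher with siVPS4A#1 alone (21.2% of the 832 and 17.2% of the 1025), or 247 without that library (29.7% and 19.7% of the 1253). With siVPS4B#2 alone 231 were higher (27.8% of the 832 and 29.4% of the 786). Neither single comparison called 443 of the 832 in the same direction (53.2%), or 381 (45.8%) without that library. A gene not called may still differ below the thresholds, so such counts do not measure differences absent with 1 duplex. The opposite direction was called for 39 of the 832 between the VPS4A duplexes (25 without that library) and for 7 between the VPS4B duplexes. Of the 1165 lower genes, 373 were lower with siVPS4A#1 alone (32.0%, and 24.4% of the 1531), or 472 (40.5%, and 30.4% of the 1554) without that library. With siVPS4B#2 alone 280 of them were lower (24.0%, and 31.3% of the 895). In the same direction, neither single comparison called 546 of them (46.9%), or 461 (39.6%) without that library, and 53 (37 without it) and 21 were called the opposite way between the VPS4A and the VPS4B duplexes.

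Single genes differed between the VPS4A duplexes, the VPS4B duplexes or both. The difference in MAN2B2 was there with the VPS4A duplexes (log2 -1.78, or -2.38 without the library labelled siVPS4A#1 replicate 2) and not called with the VPS4B duplexes (-0.41). HMGA2 (log2 1.60, or 2.13 without that library, against 0.16), CKAP4 (-2.05, or -2.47, against -0.082), CYSTM1 (-1.63, or -2.51, against -0.29) and VTA1 (-1.17, or -1.51, against -0.10) had the same pattern. KLC2 differed between the VPS4B duplexes (log2 2.18) and its difference between the VPS4A duplexes, -0.36 or 0.21 without that library, was not called. TRIR had the same pattern (log2 1.90 against -0.067, or 0.24), whereas EGFR was lower with siVPS4B#2 (-1.44) and higher with siVPS4A#1 (0.62, or 0.43, not called, without that library). FTH1 differed with both (log2 0.95, or 0.89 without that library, and 0.80), and so did PRF1 (-0.89, or -0.76, and -1.005). Of the interferon list, 12 members were higher and 1 lower with siVPS4A#1 (15 and 2 without that library) and 1 and 1 with siVPS4B#2. As a description over 10132 genes, which are not independent of each other, the pair difference had Pearson's r of 0.264 with the VPS4A duplex difference (0.402 without that library), 0.428 with that of the VPS4B duplexes, and 0.573 with their sum (Spearman's rho 0.529, or 0.674 and 0.631 without that library).

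The cell cycle lists stood out among the single duplexes. Of the 54 mitosis genes, 53 were lower with siVPS4A#1 than with siVPS4A#2 (median -1.82, or -2.002 without the library labelled siVPS4A#1 replicate 2), and 23 were higher with siVPS4B#2 than with siVPS4B#1 (median 0.61). Of the 54 replication genes 51 were lower in the first of these comparisons (52 without that library, median -1.42, or -1.53) and 32 higher in the second (0.68). Of the 39 histones 34 were lower with and without that library (median -1.91, or -1.81) and 16 higher (0.58). The 2 single differences thus had opposite signs in these lists, while the medians between the combinations were -0.41, 0.01 and -0.01. Tested against the sum of the single differences, the difference between the combinations was above it for 7 mitosis, 8 replication and 17 histone genes (18, 12 and 22 without that library) and below it for none. Histone genes include near-identical copies, so single values are uncertain. ATF4 targets, which serve amino acid synthesis, had a median of -1.15 between the VPS4A duplexes (-1.32 without that library, 24 or 25 of 36 lower), and of -0.08 between the combinations.

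**Figure D4:**
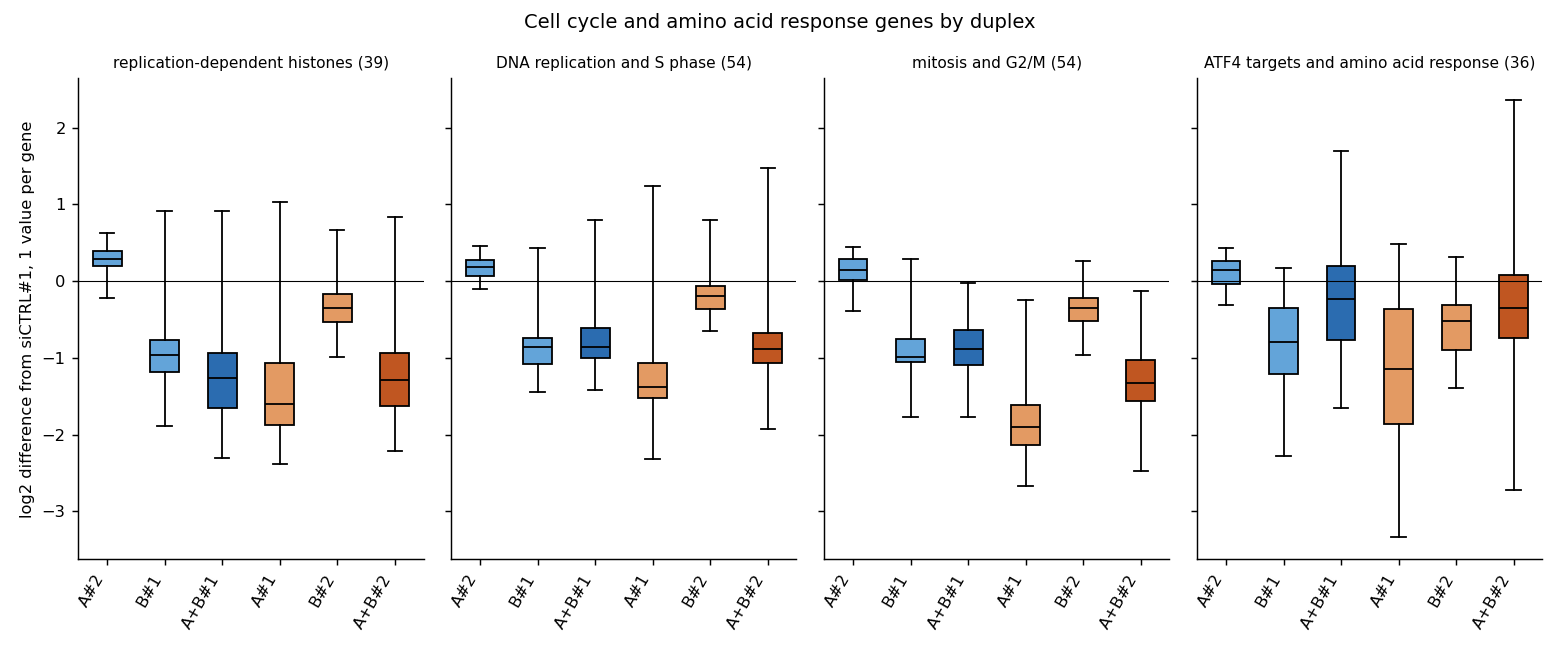
Log2 difference from siCTRL#1 for the genes of 4 lists with each duplex and combination, as boxes of the quartiles and median with whiskers over the full range, 1 value per gene, in blue for the duplexes of siVPS4A+B#1 and in orange for those of siVPS4A+B#2, without the library labelled siVPS4A#1 replicate 2. All boxes use the same 5 control libraries. The boxes of replication and histone genes overlap between the 2 combinations but not between siVPS4A#1 and siVPS4A#2, where 51 of 54 and 34 of 39 genes were lower with siVPS4A#1 when all libraries were in (52 and 34 without that library).

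The difference between the combinations was then tested against the sum of the 2 single-duplex differences, 3 differences that share no library. On the log2 scale 122 genes lay above the sum (0.966% of all genes) and 65 below it (0.515%). Without the library labelled siVPS4A#1 replicate 2 they were 255 (2.02%) and 195 (1.54%). Of the 187 genes called with all libraries 37 were also called between the combinations and 150 were not, or 87 and 363 of 450 without that library. Of the 832 genes higher with siVPS4A+B#2, 16 lay above the sum (1.92%), or 21 (2.52%) without that library. Of the 1165 lower genes, 18 lay below it (1.55%), or 36 (3.09%) without that library. A gene not called here need not equal the sum. Members of the histone, replication and mitosis lists made up 32 of the genes above the sum, of 147 members in all (52 without that library). With all libraries in, the count fell to 28, 10 and 10 when replicate 1, 3 or 4 was left out. With the library labelled siVPS4A#1 replicate 2 out as well, an alternative chosen after seeing the data, it was 234, 126 and 241.

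HMOX1 lay above the sum by 2.13 ± 0.46 on the log2 scale (limma adjusted p = 0.0145, or 2.62 and 2.98e-07 without that library). Between the single duplexes it differed by 1.35 for VPS4A (0.87 without that library) and 0.15 for VPS4B, against 3.64 between the combinations. TOPORS, at 71.0 RPM in siCTRL#1 cells, had 38.8, 5.62, 26.7 and 6.85 with siVPS4A+B#1 and 67.5, 49.7, 46.3 and 46.5 with siVPS4A+B#2, and lay above the sum by 3.505 (limma adjusted p = 0.0279, or 2.63 and 0.00175 without that library). Its 4 values with the first combination were spread widely, and the call between the combinations (log2 1.77, limma adjusted p = 0.00841) was lost without replicate 4 (1.49). ASNS, asparagine synthetase, had 138, 42.1, 60.6 and 41.4 with the first combination, against 122, 88.0, 91.9 and 81.4 RPM in the combinations, which overlap, a difference of -3.21 between the VPS4A duplexes (-3.45 without that library), and lay above the sum by 3.19 (limma adjusted p = 0.00153, or 3.43 and 1.40e-05 without that library). PHGDH, the entry enzyme of serine synthesis, had 318, 124, 98.8 and 81.1 with the first combination, against 157, 97.1, 99.1 and 71.6, also overlapping, a difference of -3.23 between the VPS4A duplexes (-3.27 without that library), and lay above it by 2.64 (limma adjusted p = 0.00153, or 2.69 and 2.39e-04 without that library). CDKN1A was the reverse, with 2.16 between the VPS4A duplexes (2.38 without that library) and -1.94 relative to the sum (limma adjusted p = 0.00153, or -2.17 and 2.55e-06 without that library). The difference of ASNS between the combinations was called with only the compared libraries (log2 0.62, limma adjusted p = 0.0467). The 10 leading genes were taken from those with a mean log2 level of at least 2. They were TOPORS, ASNS, PHGDH, H2AC4 and KCNK5 above the sum, and KRTAP2-3, CPA4, RPL21, NR4A2 and BMF below it. All 10 of them kept their call without the library labelled siVPS4A#1 replicate 2, and 8 lost it without replicate 1, 3 or 4 while that library was in.

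**Figure D5:**
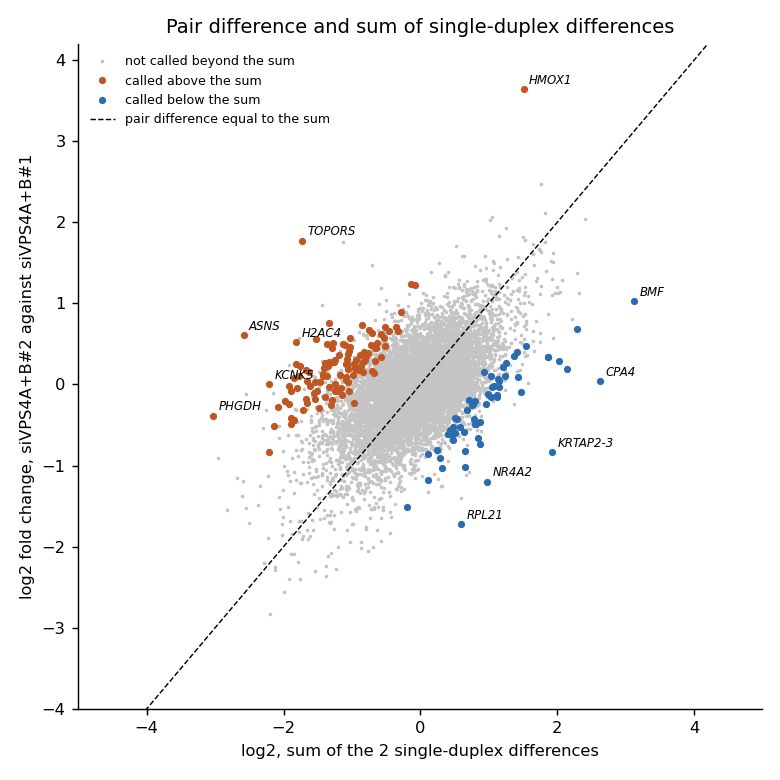
Log2 difference between siVPS4A+B#2 and siVPS4A+B#1 for each of 10132 genes with a mean log2 level of at least 2 (vertical axis) against the sum of the log2 differences between the VPS4A duplexes and between the VPS4B duplexes (horizontal axis), all libraries in, with a dashed line where they are equal. At this level 112 genes called above the sum are orange and 59 below it blue (240 and 155 without the library labelled siVPS4A#1 replicate 2, not drawn). HMOX1 stands at 3.64, and ASNS and PHGDH, with differences of 0.61 and -0.39 between the combinations that were not called, lie far to the left.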

How the data were processed

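Libraries of HCT116 cells, 38 in all, were prepared by the authors with the Ion AmpliSeq Transcriptome panel and sequenced on an Ion Proton instrument, and reads were aligned to the panel's hg19 transcripts with TMAP and counted with HTSeq-count (0.6.0). The study tested counts with DESeq2 (1.18.1) with the batch in the model, at 1.5-fold. The deposited unit is a signal. It gives, for each of 12627 RefSeq identifiers, its fraction of the reads counted in a library, with a sum of 1 per library, and how counts became shares is not stated in the sources used here. No other column was present (0 columns without a sample). Symbols were found for 12474 identifiers, and 153 kept the identifier alone.

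Reads were recovered by dividing by the share that 1 read is worth in a library. Of all values, 49.5% are printed precisely enough to tell, and 99.99% of these were whole within 0.1 read plus the rounding of the printed value. The read total of each library was itself the one that brought part of these values closest to whole numbers. Totals ran from 669257 to 11035293 reads a library, and counting intervals cover counting error only. Libraries were scaled with TMM, and log2(RPM + 1) of all 38 libraries, 9 conditions and no filter beyond the authors' was fitted with limma 3.58.1 (R 4.3.3, trend in eBayes), with the replicate number as a block. P-values were adjusted over all 12627 genes by Benjamini-Hochberg, and a gene was called at an adjusted p under 0.05 and a change of at least 1.5-fold. The labels give the number as a batch letter, which is why same-numbered libraries were paired. The residuals of same-numbered libraries of the combinations correlated with r of 0.384, 0.054, 0.457 and -0.271 in replicates 1 to 4. The study describes the replicates behind its RNA-seq values as independent experiments.

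The comparison, the gene lists and the named genes were chosen with earlier results of these data known. Named were VPS4A and VPS4B, and the 15 called genes with the largest change in each direction whose libraries did not overlap. Up to 4 called members of each list in each direction and its most abundant member were named too. So were genes the study singles out, the 5 leading genes in each direction beyond the sum, and up to 5 on opposite sides of siCTRL#1. The 15 genes and the 5 beyond the sum were taken only from genes with a mean log2 level of at least 2 over all 38 libraries. Other list members and the partners BLVRA, NQO1 and BACH1 of HMOX1 are named from the lists after their values were seen. A few genes that meet the rule are not reported here. Positions are from the GENCODE annotation of GRCh37, the build of hg19, and promoters from RefSeq (GRCh38.p14).

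Alternatives were edgeR 4.0.16 and DESeq2 1.42.0 on the recovered reads, other scalings, pseudocounts and filters, array weights, no block, fewer libraries and each replicate left out. Leaving out a replicate together with the library labelled siVPS4A#1 replicate 2 was added after the data were seen. Tables and figures used Python 3.11.15, numpy 2.4.6, pandas 2.3.3, scipy 1.17.1 and matplotlib 3.10.9. The fits were tested on simulated data.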

Additional observations from a re-analysis of the deposited data

Results flagged for a closer look

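In 10 of the 108 groups of 4 or 5 libraries examined (9.26%), 1 library stood far from the others by Dixon's test, which chance gives in about 1 of 20 groups. One is the library labelled siVPS4A#1 replicate 2, with 11.33 RPM of VPS4A. With siVPS4A+B#1, replicate 1 stood apart for CYSTM1 (207.1 RPM), replicate 2 for SLC2A1 (3063) and replicate 3 for KRT23 (47.13). With siVPS4A+B#2, replicate 1 stood apart for BLVRA (32.05) and TOPORS (67.52), replicate 3 for CXCL8 (56.83), and replicate 4 for BBC3 (30.11), THBS1 (31.09) and MT2A (2204). For each of these genes but VPS4A with siVPS4A#1, the libraries of the 2 combinations did not overlap. For CYSTM1, SLC2A1, KRT23 and TOPORS the choice of the leading genes required this, so it tells nothing on the outlying library.

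A difference between the combinations that was not the sum of the single-duplex differences was tested with limma for each named gene. HMOX1 lay 2.132 above the sum on the log2 scale, TOPORS 3.505, ASNS 3.191, PHGDH 2.644, the histone gene H2AC4 2.337 and the potassium channel gene KCNK5 2.209. Below it lay CDKN1A (-1.943), RPL21 (-2.319), the death gene BMF (-2.099), the keratin-associated KRTAP2-3 (-2.76), the nuclear receptor gene NR4A2 (-2.178) and the carboxypeptidase gene CPA4 (-2.582). RPL21 has many processed copies, so its value is uncertain. These tests rest on siVPS4A#1, and without the library labelled siVPS4A#1 replicate 2 the 10 leading genes, HMOX1 and CDKN1A were still called, H2AC4 at 1.89, KCNK5 at 1.77, RPL21 at -1.91, BMF at -2.43, KRTAP2-3 at -2.21, NR4A2 at -1.56 and CPA4 at -1.94.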

How the results depend on the processing

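The VPS4A and VPS4B differences between the combinations kept their sign under the alternatives tried. Without TMM factors the called genes of siVPS4A+B#1 against siCTRL#1 turned from mostly higher (52.7%) to mostly lower (28.0% higher). Between the combinations 1997 genes became 1259 with a pseudocount of 5 (503 higher, 756 lower), 548 at 2-fold (199 and 349) and 175 with limma's treat against 1.5-fold (54 and 121). The other alternatives stayed within 1.5 times of 1997, from 1506 genes upward when replicates were left out, 2314 with DESeq2 and 2294 with edgeR. Without the replicate block 1860 were called, and of 199 called named genes 192 were still called. For the VPS4A duplexes, 2556 genes became 1026 with only the compared libraries, 1630 with a pseudocount of 5, 867 at 2-fold and 518 with treat. For the VPS4B duplexes, 1681 became 1047, 374 and 121 under the last 3 of these. With 1 replicate left out, the count ranged from 1113 (without replicate 1) to 1805 (without replicate 2). It was 1933 without replicate 4 and the library labelled siVPS4A#1 replicate 2. Against siCTRL#1, siVPS4A+B#1 gave 1692, 786 and 367, and siVPS4A+B#2 gave 1288 at 2-fold and 871 with treat. The count beyond the sum moved most. It was 187, against 103 without the replicate block, 39 with only the compared libraries, 428 with DESeq2, 670 with array weights, 450 without the library labelled siVPS4A#1 replicate 2, and 10 to 241 when a replicate was left out, with or without that library. With treat 0 were called, against 235 by edgeR. The causes were not tested, except that a higher fold threshold calls fewer genes by construction. For VPS4A, the exact test that flips the signs of replicate pairs kept the log2 difference of -1.72, and its smallest possible p is 0.125. Of the 2 paralogs, depth limits VPS4B more, at 2 to 9 reads a library. Several interferon list members were at or near the floor with the first combination as well.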

Other observations

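Genes of RNA interference and the microRNA machinery had a median log2 difference of -0.23 between the combinations. Of 22, 1 was higher (4.55%) and 3 lower (13.6%), against 6.59% and 9.23% of all genes. Without replicate 1, 2 were lower and none higher. Among the 3 lower were the decapping enzyme gene DCP2 (log2 -1.39 ± 0.17, limma adjusted p = 3.18e-07) and AGO1 (log2 -0.84 ± 0.16, limma adjusted p = 1.82e-04), which encodes an Argonaute protein. Genes of autophagy moved both ways, with the receptor gene OPTN higher (log2 0.89 ± 0.21, limma adjusted p = 0.0018) and TAX1BP1 lower (log2 -0.87 ± 0.18, limma adjusted p = 6.09e-04), while SQSTM1, their most abundant member, had a log2 difference of 0.12 (95% interval -0.55 to 0.78). Of 13 metallothionein and zinc transporter genes, 4 were lower, among them the Golgi zinc transporter gene SLC30A5 (log2 -0.66 ± 0.16, limma adjusted p = 0.0021).

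Of all genes, 10.6% were higher and 9.52% lower than siCTRL#1 with siVPS4A+B#1, and 13.2% and 14.8% with siVPS4A+B#2. The balance of higher and lower genes depended on the TMM factors, as given above. Against siCTRL#1, with the same 5 control libraries in both comparisons, 17 of 33 sterol genes were higher and 1 lower with siVPS4A+B#1. With siVPS4A+B#2, 16 were higher and none lower. Of 54 mitosis genes, 42 were lower with the first combination (median -0.95) and 49 with the second (-1.37). Of 25 heat shock genes, 1 was higher and 2 lower with the first, and 10 and 2 with the second. Of 40 interferon genes, 7 were higher and 3 lower with the first, and 22 and 3 with the second. CD68, a lysosomal glycoprotein and macrophage marker, averaged 8.28 RPM in siCTRL#1 cells, 137 with siVPS4A+B#1 and 58.0 with siVPS4A+B#2, and its difference between the combinations was not called (limma adjusted p = 0.0712).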
